A study of Mus musculus with 48 samples.

Results

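Primary lung fibroblasts of a mouse line that carries a Cre-dependent biosensor for active Gai were compared between a virus that delivers Cre recombinase and an empty virus. The comparison took all 12 libraries of the Gai line, 6 with Cre and 6 with empty virus, out of 48 libraries in the series. The mice were heterozygous for the Gai*-BERKY3 allele, and all 12 libraries, the empty virus controls included, came from cells with that allele. The 4 groups of 3 libraries were Cre virus without agonist, empty virus without agonist, Cre virus with TRAP-6, and empty virus with TRAP-6. Both viruses were AAV2/1 vectors with the CMV promoter, a strong viral promoter that acts in most cell types, and each was given at a 1000-fold dilution with polybrene 18 h after plating 160000 cells per well. TRAP-6 at 100 µM, or fresh medium alone, was added 90 min before RNA isolation. Gaq and Ga13 fibroblasts, heterozygous for the Gaq*-BERKY3 or Ga13*-BERKY3 allele and given the same 4 treatments with 12 libraries each, served for the comparison between lines. Age and sex of the mice were not given in the sources used here, nor whether the replicates were separate animals or cultures, so p-values measure the spread between these samples, which may be technical. Cells without a biosensor allele were not analysed here, so Cre itself, loss of the stop sequence and the biosensor protein cannot be told apart.

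Gai proteins are the alpha subunits of heterotrimeric G proteins that inhibit adenylyl cyclase and release beta-gamma subunits when a receptor loads them with GTP. A BERKY biosensor is a luminescent protein that binds the GTP-loaded alpha subunit, and its expression starts once Cre removes a stop sequence. TRAP-6 activates the thrombin receptor PAR1, the product of F2r. Fibroblast cultures from lung can also hold mesothelial cells, the keratin-expressing cells that line the pleura, and lung macrophages.

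Libraries held 15604148 to 27023568 gene counts. Fibroblast markers summed to 41900 to 56500 CPM (counts per 1000000 gene counts of the library) in Cre libraries. In empty virus libraries they summed to 41200 to 57000 CPM. Of the 12 tested markers of that list 0 passed the test, near the share of all genes tested that rose (0.181%) or fell (0.0188%) with Cre. At an edgeR unadjusted p under 0.05 there were 2 of the 12 (16.7%), beside 6.23% of all genes tested. Mesothelial markers were also present, and so were macrophage markers, with Lyz2 alone at a mean of 1110 CPM in Cre and 1220 CPM in empty virus libraries. Markers at 0 counts in every library included S100a9 and Ly6g of neutrophils, Cd3d and Cd8a of T cells, Snap25 and Rbfox3 of neurons, and Hba-a2 and Hbb-bs of erythroid cells. Libraries with the same replicate number deviated from their group means together (correlation 0.151 to 0.636 over 18 pairs), but numbers 2 and 3 also did so with each other (0.121 to 0.524 over 12 pairs). The 4 libraries of number 1 stood apart from the rest, with correlations of -0.571 to -0.24 to those of numbers 2 and 3, and results are also given without them.

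The biosensor row was read first as a check of the virus labels. It held 2038 to 2527 counts in the 3 unstimulated Cre libraries, against 7 to 18 counts in the 3 unstimulated empty virus libraries. With TRAP-6 it held 1859 to 2385 counts in Cre libraries and 9 to 21 counts in empty virus libraries. Every Cre library lay far above every empty virus library, and a low count of the biosensor row was present in all 6 empty virus libraries. The summed counts, scaled for library size, were 174-fold higher with Cre at rest (95% exact binomial interval 127 to 246) and 183-fold higher with TRAP-6 (137 to 251), intervals that cover counting error only. The log2 difference in CPM was 7.34, and exchanging the virus labels inside each state, an exact permutation test, gave a two-sided p of 0.005, the smallest that 400 arrangements can give.

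**Figure D1:**
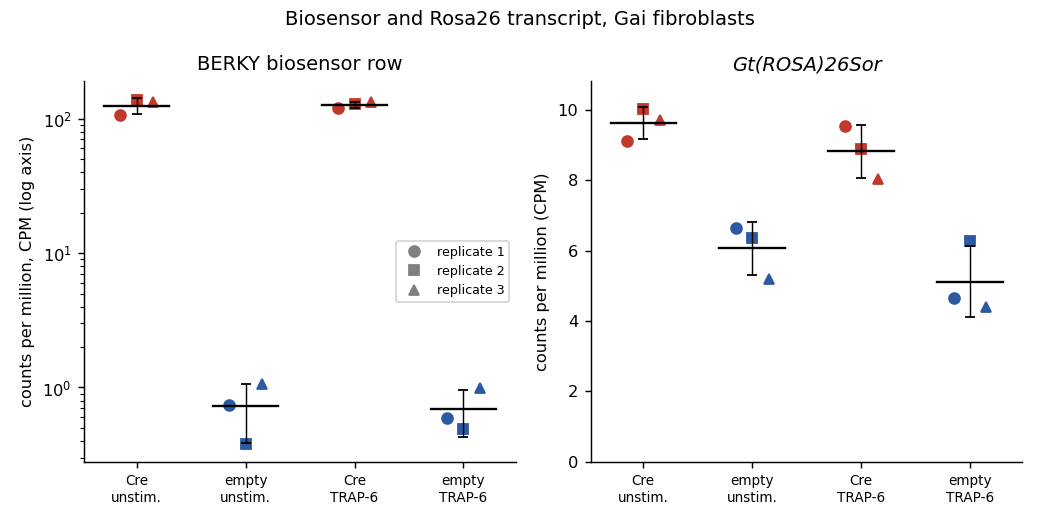
CPM of the biosensor row (left, log axis) and of Gt(ROSA)26Sor (right) in the 12 Gai libraries, with 1 symbol per replicate number, the mean as a line and the SD as bars (n = 3). Biosensor levels were 106 to 137 CPM with Cre and 0.377 to 1.05 CPM with empty virus.

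Gt(ROSA)26Sor, the noncoding transcript of the Rosa26 locus, a site often used for transgenes in mice, also rose with Cre. It had 9.13, 10.02 and 9.72 CPM in unstimulated Cre libraries, against 6.64, 6.36 and 5.21 CPM in unstimulated empty virus libraries. With TRAP-6 it had 9.55, 8.88 and 8.04 CPM in Cre libraries, against 4.66, 6.27 and 4.41 CPM in empty virus libraries. The 6 Cre libraries lay above all 6 empty virus libraries, and the log2 change over both states was 0.73 ± 0.10 (SE; edgeR adjusted p = 4.07e-05). Its exons overlap those of Thumpd3 on the other strand, and whether the counting used strand is not given in the sources used here. Thumpd3 had a log2 change of -0.06 ± 0.08 and did not pass the test, nor did the other 4 members of the Rosa26 neighbourhood list, Setd5, Lhfpl4, Mtmr14 and Srgap3, at -0.11 to -0.04.

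Apart from the biosensor, few genes differed between Cre and empty virus over both states, and the changes were small. Of 15980 genes tested, 29 rose with Cre (0.181%) and 3 fell (0.0188%), at an edgeR quasi-likelihood adjusted p under 0.05 with state and replicate number in the model. The log2 changes of the genes that rose ran from 0.16 to 0.97, so no gene reached 2-fold. Krt18, Upk1b, Krt8 and Itga3 had the 4 smallest p-values, and Krt18, Upk1b and Krt8 are on the list of mesothelial markers. A Cre and an empty virus library of the same state and number form a pair, and all 29 genes were higher with Cre in 6 of 6 pairs. They were called in these same libraries with number in the model, so the pair count describes them and is no separate support. What a number marks is not given, and pairs of the same number in different states may share its effect. The 6 pairs are therefore not 6 independent comparisons. For 11 of the 32 genes all 6 Cre libraries lay above all 6 empty virus libraries, a separation found in 0.181% of all genes tested, and the reverse order was found in 0.0501% and in 0 of the 32. The replicate block mattered for these calls: without it only 3 genes passed, Gt(ROSA)26Sor, Flt4 and Krt8-ps. Without the stimulated Cre library of number 2 the count was 84, of which 31 were among the 32. Without the 4 libraries of number 1 it was 26, of which 21 were among the 32.

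Krt18, Krt8, Krt19 and Krt7, simple epithelial keratins that pair as type I and type II proteins into intermediate filaments, each rose. Krt18, a type I keratin, had 33.1, 28.8 and 29.9 CPM in unstimulated Cre libraries, against 24.7, 16.7 and 16.6 CPM in unstimulated empty virus libraries. With TRAP-6 it had 35.2, 27.8 and 30.1 CPM in Cre libraries, against 21.5, 14.9 and 13.5 CPM in empty virus libraries. The lowest Cre library lay above the highest empty virus library, and number 1 was the highest of its group in each. The log2 change was 0.79 ± 0.07 (edgeR adjusted p = 1.19e-08), and 0.92 ± 0.08 without the libraries of number 1.

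Krt8, the type II partner of Krt18, had 20.9, 17.7 and 17.6 CPM in unstimulated Cre libraries, against 14.2, 10.4 and 12.2 CPM in unstimulated empty virus libraries. With TRAP-6 its levels were 23.5, 18.6 and 21.4 CPM in Cre libraries, against 18.7, 13.2 and 13.97 CPM in empty virus libraries. Here 1 empty virus library, number 1 with TRAP-6, reached into the Cre range. The log2 change was 0.53 ± 0.07 (edgeR adjusted p = 1.91e-05). The row Krt8-ps, a processed copy of Krt8, rose by 0.67 ± 0.10, and reads of the gene and the copy may not be told apart. Krt19, a type I keratin, averaged 9.93 ± 1.52 CPM with Cre and 6.49 ± 0.97 CPM with empty virus (SD, n = 6 each), with a log2 change of 0.61 ± 0.09. Krt7, a type II keratin, averaged 26.9 ± 4.15 CPM with Cre and 20.2 ± 3.97 CPM with empty virus, with a log2 change of 0.41 ± 0.06, and its groups overlapped through number 1.

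Krt8, Krt18 and Krt7 lie on chromosome 15, where Krt8 and Krt18 neighbour each other on opposite strands. The 250 bases before the RefSeq start of these 3 genes (GRCm38.p6, an earlier build than the GRCm39 of the counts) are shown because these genes moved together. Their positions are chr15:102004343-102004592 on the minus strand for Krt8, chr15:102027966-102028215 on the plus strand for Krt18 and chr15:101412153-101412402 on the plus strand for Krt7. Capitals mark the GC box GGGCGG, the AP-1 site TGANTCA and the TATA box TATAA, searched on both strands, and no matches of different motifs overlap.
Krt8: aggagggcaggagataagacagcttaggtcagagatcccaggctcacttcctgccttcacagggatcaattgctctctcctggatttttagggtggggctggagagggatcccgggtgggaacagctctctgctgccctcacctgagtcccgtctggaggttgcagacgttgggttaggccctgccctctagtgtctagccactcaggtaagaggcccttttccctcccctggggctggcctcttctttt
Krt18: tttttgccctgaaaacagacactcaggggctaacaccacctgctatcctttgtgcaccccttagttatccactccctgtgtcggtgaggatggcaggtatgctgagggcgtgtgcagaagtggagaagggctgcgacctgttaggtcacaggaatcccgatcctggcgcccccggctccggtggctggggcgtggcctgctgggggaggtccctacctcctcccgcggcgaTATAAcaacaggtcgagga
Krt7: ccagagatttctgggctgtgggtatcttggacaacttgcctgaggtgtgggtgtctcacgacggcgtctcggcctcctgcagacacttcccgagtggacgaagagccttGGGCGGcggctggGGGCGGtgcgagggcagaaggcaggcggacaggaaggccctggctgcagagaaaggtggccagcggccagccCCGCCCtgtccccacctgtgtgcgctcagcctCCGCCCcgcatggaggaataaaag
The Krt7 window held 4 GC boxes, the Krt18 window held 1 TATA box, and the Krt8 window held none of the 3 motifs. Of all 32851 RefSeq windows of this length, 32.7% held the GC box, 6.75% the AP-1 site and 22.8% the TATA box. Of the 32 genes, 18 had a window in that table, and 8 of these held a GC box, 2 an AP-1 site and 3 a TATA box, as a description of these letters only. A gene counted if any of its windows held the motif, so these counts and the shares of single windows are unlike measures.

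Upk1b, a tetraspanin of urothelial and mesothelial membranes, had 317, 318 and 319 CPM in unstimulated Cre libraries, against 286, 255 and 255 CPM in unstimulated empty virus libraries. With TRAP-6 it had 357, 313 and 313 CPM in Cre libraries, against 296, 253 and 246 CPM in empty virus libraries. The groups did not overlap, and the spread among the unstimulated Cre libraries was narrow. The log2 change was 0.28 ± 0.03 (edgeR adjusted p = 9.44e-06). Msln, which encodes mesothelin, averaged 66.8 ± 8.76 CPM with Cre and 57.4 ± 6.97 CPM with empty virus, a log2 change of 0.21 ± 0.04, which did not pass the test without the libraries of number 1.

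The marker lists and gene lists were chosen with earlier results of these data known. Their counts and medians describe them and are no separate support. Of the 10 mesothelial markers tested, 5 rose (Krt18, Upk1b, Krt8, Krt19 and Msln), beside 0.181% of all genes tested. The other 5 had positive log2 changes that did not pass, led by Upk3b at 0.16 ± 0.04. The median over the 10 was 0.188, beside -0.000391 over all genes, and the list's median was above 0 in 6 of 6 pairs, from 0.15 to 0.35. Their summed level was 892 to 1130 CPM in Cre libraries and 763 to 977 CPM in empty virus libraries, so the sums overlapped. Among lung epithelial markers, 3 of 11 were expressed highly enough to be tested, Krt7 among them. The sum of the list was 24.9 to 36.3 CPM with Cre and 19.3 to 28.4 CPM with empty virus, of which Krt7 alone made up 21.8 to 33.2 CPM with Cre and 17.1 to 26.3 CPM with empty virus. In bulk RNA, more cells of a type and more RNA per cell cannot be told apart, and the part of cell composition in these changes was not tested.

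**Figure D2:**
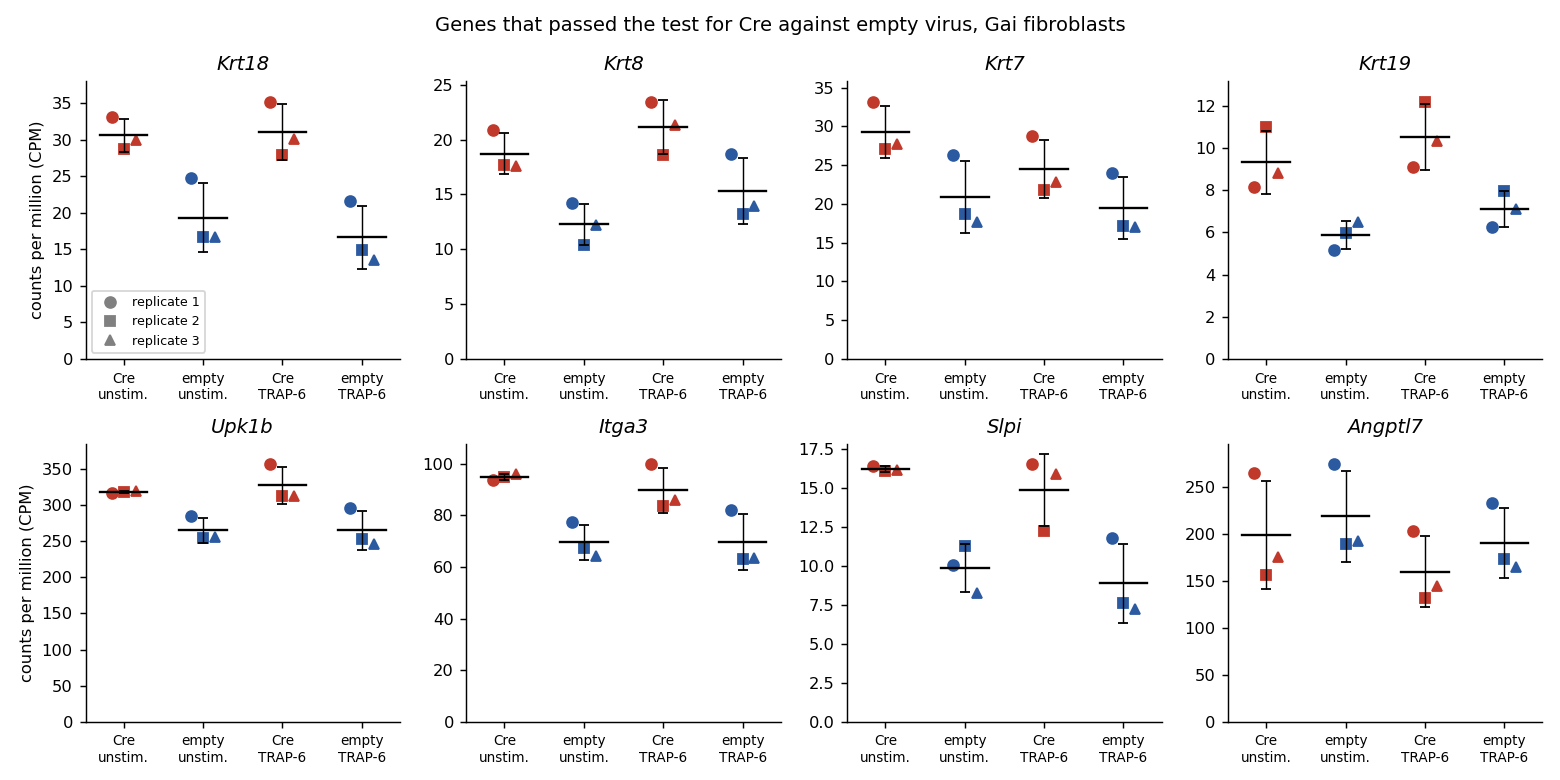
CPM of 8 genes in the 12 Gai libraries, with 1 symbol per replicate number, the mean as a line and the SD as bars (n = 3 per group). All 6 Cre libraries lie above all 6 empty virus libraries for Krt18, Krt19, Upk1b, Itga3 and Slpi, whereas Angptl7 was lower with Cre within each pair.

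Itga3, the alpha subunit of a laminin-binding integrin, had 93.8, 94.8 and 96.0 CPM in unstimulated Cre libraries, against 77.3, 67.3 and 64.3 CPM in unstimulated empty virus libraries. With TRAP-6 it had 99.8, 83.5 and 86.0 CPM in Cre libraries, against 82.2, 63.2 and 63.4 CPM in empty virus libraries. The groups did not overlap, and the log2 change was 0.41 ± 0.05 (edgeR adjusted p = 2.55e-05). Itgb4, the integrin beta subunit of hemidesmosomes, averaged 9.63 ± 1.68 CPM with Cre and 6.22 ± 0.87 CPM with empty virus, a log2 change of 0.62 ± 0.11. Cdh3, which encodes P-cadherin, rose by 0.34 ± 0.06, and the tight junction gene Cldn15 rose by 0.35 ± 0.08. Cldn15 was close to the threshold (edgeR adjusted p = 0.0449).

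Slpi, a secreted inhibitor of leukocyte proteases, had 16.4, 16.1 and 16.2 CPM in unstimulated Cre libraries, against 10.07, 11.3 and 8.25 CPM in unstimulated empty virus libraries. With TRAP-6 it had 16.5, 12.2 and 15.9 CPM in Cre libraries, against 11.8, 7.63 and 7.22 CPM in empty virus libraries. No empty virus library reached the lowest Cre library, and the log2 change was 0.72 ± 0.10 (edgeR adjusted p = 0.000471). Flt4, the receptor for the lymphatic growth factors VEGF-C and VEGF-D, averaged 21.2 ± 1.52 CPM with Cre and 14.6 ± 2.07 CPM with empty virus, a log2 change of 0.53 ± 0.07.

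Igfbp3, which binds insulin-like growth factors, averaged 683 ± 146 CPM with Cre and 595 ± 164 CPM with empty virus. These groups overlapped widely, since number 1 reached 897 CPM with Cre and 809 CPM with empty virus, and the log2 change within the block was 0.21 ± 0.03 (edgeR adjusted p = 0.00134). Clu, a secreted chaperone, rose by 0.18 ± 0.03, the complement gene C2 by 0.29 ± 0.06, and Pdgfb, a mitogen for fibroblasts and pericytes, by 0.58 ± 0.13. Il18r1, a receptor chain for interleukin 18, rose by 0.82 ± 0.16 from a low level, with 2.84 to 4.77 CPM in Cre and 1.13 to 2.89 CPM in empty virus libraries. Tnfrsf1b, a receptor for tumour necrosis factor, rose by 0.17 ± 0.03. Of the 36 genes of the secreted growth factor list, Igfbp3 and Pdgfb were the 2 that passed, beside 0.181% of all genes tested that rose.

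Aqp5, a water channel, had the highest log2 change, 0.97 ± 0.20, at 1.45 to 3.85 CPM with Cre and 0.81 to 1.81 CPM with empty virus, where 1 library holds as few as 15 reads, and the groups overlapped. It did not pass without the libraries of number 1. Atp1b1, the beta subunit of the sodium pump, rose by 0.18 ± 0.04, and Nherf1, a scaffold under the membrane of epithelial cells, by 0.16 ± 0.04. The other genes that rose were Pkhd1l1, Ildr2, Ptprv, the endocytic adaptor Dab2, the ubiquitin-conjugating enzyme Ube2l6 and the p53 target Trp53inp1. Of the 32 genes, 20 passed in each of the 12 fits that left out 1 library, and no direction was reversed in any alternative. The other 12 were lost in 1 fit (Trp53inp1, without stimulated empty virus number 3), 3 fits (Dab2 and Mmp10), 4 (Aqp5, C2 and Msln), 5 (Tnfrsf1b), 8 (Atp1b1, Lyz2 and Pdgfb) or 9 (Cldn15 and Nherf1).

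Only 3 genes fell with Cre. Angptl7, a secreted angiopoietin-like protein, had 264, 156 and 175 CPM in unstimulated Cre libraries, against 274, 189 and 192 CPM in unstimulated empty virus libraries. With TRAP-6 it had 202, 131 and 144 CPM in Cre libraries, against 232, 173 and 165 CPM in empty virus libraries. Cre was lower in 6 of 6 pairs although the groups overlapped, and the log2 change was -0.21 ± 0.04 (edgeR adjusted p = 0.00201). Mmp10, a matrix metalloproteinase, averaged 175 ± 40.5 CPM with Cre and 200 ± 46.4 CPM with empty virus, a log2 change of -0.19 ± 0.04, with Cre lower in 5 of 6 pairs. Lyz2, the lysozyme of macrophages and other myeloid cells, averaged 1113 ± 93.7 CPM with Cre and 1217 ± 45.0 CPM with empty virus, a log2 change of -0.13 ± 0.03 (edgeR adjusted p = 0.0429), with Cre lower in 5 of 6 pairs.

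Lyz2 was the only 1 of 14 tested macrophage markers that passed, beside 0.0188% of all genes tested that fell. Of the 14 markers, 13 had negative log2 changes, with a median of -0.105. Among the others, Marco had -0.23 ± 0.09 and was lower with Cre in 6 of 6 pairs, Cd68 had -0.07 ± 0.04, and Csf1r had -0.10 ± 0.06. The list's sum was 1280 to 1620 CPM with Cre and 1410 to 1590 CPM with empty virus, and its median was below 0 in 5 of 6 pairs. The part of macrophage number in the Lyz2 change was not tested.

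In the G2 and M phase list, 28 of 29 tested genes had positive log2 changes, with a median of 0.224. The list's median was above 0 in 6 of 6 pairs (0.13 to 0.33). Over both states 0 passed with edgeR, beside 0.181% of all genes tested that rose. At an unadjusted p under 0.05 there were 18 of the 29, beside 6.23% of all genes tested. Plk1, a mitotic kinase, had 0.69 ± 0.16 (edgeR adjusted p = 0.0662), Ccnb1, which encodes cyclin B1, had 0.72 ± 0.18, and Top2a, a topoisomerase of dividing cells, had 0.23 ± 0.06. Most of these transcripts were scarce, with Plk1 at 3.01 to 4.66 CPM with Cre and 1.58 to 3.07 CPM with empty virus. Over all genes tested, 49.8% had positive log2 changes.

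In the interferon response list, 44 of 49 tested genes had positive log2 changes with a median of 0.185, beside 49.8% of all genes tested. With edgeR 0 passed, beside 0.181% of all genes tested that rose. Of the 49, 21 were at an unadjusted p under 0.05, beside 6.23% of all genes tested. The list's median was 0.039, 0.23 and -0.026 in the 3 unstimulated pairs and 0.64, -0.046 and 0.23 in the 3 stimulated pairs, so it lay above 0 in 4 of 6 pairs and was highest in the stimulated pair of number 1. Ifit1, an antiviral RNA-binding protein, had 0.67 ± 0.39. In the p53 and DNA damage list 1 of 35 tested genes rose, beside 0.181% of all genes tested. It was Trp53inp1 at 0.19 ± 0.03, and the list's median was 0.0156. Trp53 itself had -0.04 ± 0.04.

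Of 25 tested members of the list of Gi and Go subunits and their partners, 0 passed with edgeR. Over all genes tested, 0.181% rose and 0.0188% fell. With so small a share over all genes, 0 of 25 says little about these genes. Of the 25, 1 was at an unadjusted p under 0.05, beside 6.23% of all genes tested, and the median was -0.0233. Gnai2, which encodes 1 of the Gai subunits, averaged 406 ± 11.2 CPM with Cre and 407 ± 9.24 CPM with empty virus, a log2 change of -0.01 ± 0.03. Gnai1 had 0.01 ± 0.07, Gnai3 had -0.05 ± 0.03, and Gnao1, which encodes the related Go subunit, had -0.10 ± 0.12. F2r, which encodes the receptor of TRAP-6, had -0.03 ± 0.03. Lists of cAMP and CREB targets (32 tested) and immediate early and ERK feedback genes (37 tested) also had 0 members past the test. So did lists of SRF and MRTF targets (31 tested) and matrix and myofibroblast genes (39 tested), again near the share over all genes. At an unadjusted p under 0.05 these lists had 2 (6.25%), 5 (13.5%), 1 (3.23%) and 3 (7.69%), beside 6.23% of all genes tested.

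**Figure D3:**
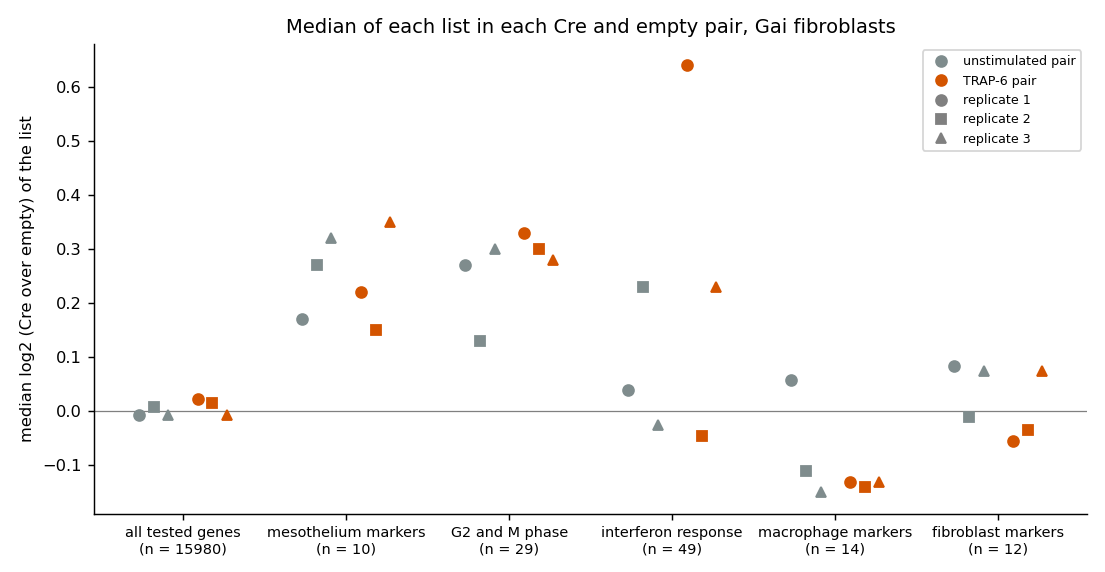
Median log2 ratio of Cre over empty virus for each gene list in each of the 6 pairs of Gai libraries, with colour for the state and symbol for the replicate number. Mesothelium markers and G2 and M phase genes lie above 0 in 6 of 6 pairs, interferon genes in 4 of 6, and all tested genes lie between -0.0072 and 0.022.

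Within each state fewer genes passed. At rest 10 genes rose with Cre (0.0626%) and 1 fell (0.00626%), and all 10 were among the 29 that rose over both states. They were Krt18, Flt4, Gt(ROSA)26Sor, Krt19, Krt8, Krt7, Itga3, C2, Upk1b and Igfbp3. The gene that fell at rest was Olr1, a scavenger receptor for oxidised lipoprotein, with 121, 144 and 157 CPM in Cre libraries, against 144, 181 and 191 CPM in empty virus libraries, and a log2 change of -0.29 ± 0.05 (edgeR adjusted p = 0.0246), which no longer passed when any 1 of the 6 unstimulated libraries was left out. With TRAP-6, 8 genes rose (0.0501%) and 1 fell (0.00626%), which was Angptl7 at -0.27 ± 0.05 and did not pass in 5 of the 12 fits that left out 1 library. Those that rose were Plk1, Krt18, Gt(ROSA)26Sor, Krt8-ps, Krt8, Itga3, Upk1b and Trp53inp1. Plk1 had 3.33, 4.66 and 3.76 CPM in stimulated Cre libraries, against 1.78, 1.58 and 2.16 CPM in stimulated empty virus libraries, a log2 change of 1.07 ± 0.21 (edgeR adjusted p = 0.0417), which did not pass in 8 of the 12 fits that left out 1 library.

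Krt18, Upk1b, Krt8, Itga3 and Gt(ROSA)26Sor, 5 genes in all, passed in both states. These counts rest on single libraries. The 11 calls at rest became 2 or 5 without Cre number 2 or 3, and 4, 6 or 3 without empty virus number 1, 2 or 3 at rest. The 9 calls with TRAP-6 became 1 without stimulated Cre number 1 or 3, 2 or 1 without stimulated empty virus number 2 or 3, and 4 or 5 without unstimulated empty virus number 1 or 3. Without the libraries of number 1 they were 8 and 5, and without the replicate block both were 0.

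The difference of the Cre effect between states was tested directly, and 0 genes passed (0%) with edgeR. Of 15980 genes tested, 692 were at an unadjusted p under 0.05, a share below that expected without any difference. DESeq2 gave 9 genes and limma-voom gave 0. All 32 genes called over both states had the same sign in each state, but a call on both states together favours equal signs. Flt4 had 0.69 ± 0.10 at rest and 0.38 ± 0.09 with TRAP-6, and Krt18 had 0.68 ± 0.09 at rest and 0.89 ± 0.09 with TRAP-6. The absence of calls does not show that the effects were alike.

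**Figure D4:**
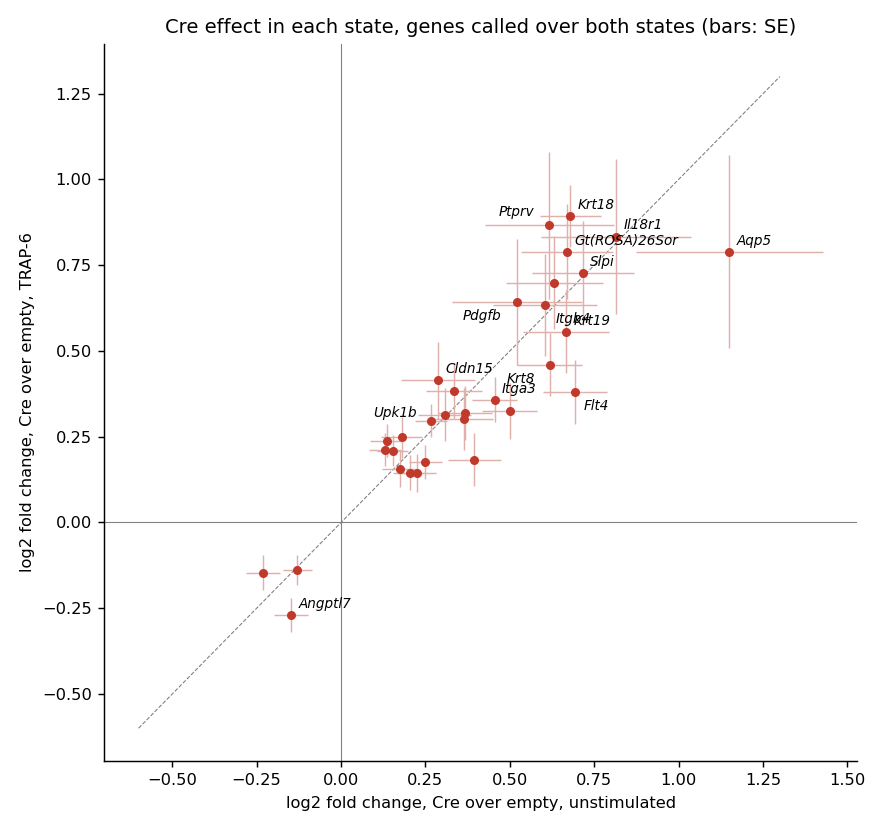
Log2 fold change of Cre over empty virus at rest (horizontal) and with TRAP-6 (vertical) for the 32 genes called over both states, with SE bars and a dashed line of equality. All 32 points have the same sign on both axes, which a call over both states favours, and 3 lie below 0.

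The Gai effect was then set against the same contrast in Gaq and Ga13 fibroblasts, which share no library with it, in a joint fit of 36 libraries and 16749 genes. In that fit 24 genes rose in Gai (0.143%) and 3 fell (0.0179%), 732 rose in Gaq (4.37%) and 544 fell (3.25%), and 13 rose in Ga13 (0.0776%) and 6 fell (0.0358%). Of the 29 genes that rose in the fit of Gai alone, 25 had positive log2 changes in Gaq and 28 in Ga13, where 50.26% and 50.01% of all genes did. Of the 29, 14 passed as higher in Gaq, which is 48.3% of them and 1.91% of the genes higher in Gaq, and 1, Dab2, passed as lower there. In Ga13, 6 of the 29 passed as higher, 20.7% of them and 46.2% of the genes higher in Ga13. Upk1b, Ube2l6 and Trp53inp1 passed in all 3 lines, with log2 changes for Upk1b of 0.28 ± 0.03 in Gai, 0.36 ± 0.03 in Gaq and 0.23 ± 0.03 in Ga13. Gt(ROSA)26Sor had 0.73 ± 0.12 in Gai, 0.40 ± 0.14 in Gaq, where it did not pass (edgeR adjusted p = 0.0692), and 1.13 ± 0.13 in Ga13. The median log2 change of the mesothelial list was 0.183 in Gai, 0.301 in Gaq and 0.139 in Ga13. For the interferon list it was 0.183, 0.371 and 0.296, and for the G2 and M phase list 0.225, 0.0444 and -0.165. For macrophage markers it was -0.111, -0.0522 and 0.0364, and differences of list medians between lines were not tested.

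The test of the difference, Gai minus the mean of Gaq and Ga13, gave 20 genes higher (0.119%) and 32 lower (0.191%). Of these 52, 42 passed in Gaq, 2 in Ga13 and 6 in Gai, so most of the 52 were genes called in Gaq and not in Gai. Among the 32 genes of the Gai comparison, 7 differed: Slpi, Krt18, Itga3, Clu and Dab2 had higher log2 changes in Gai, and Angptl7 and Lyz2 lower ones. Clu had 0.18 ± 0.03 in Gai, -0.09 ± 0.03 in Gaq and 0.07 ± 0.03 in Ga13. Dab2 had 0.17 ± 0.03 in Gai, -0.11 ± 0.03 in Gaq and 0.11 ± 0.03 in Ga13, so part of its difference came from its fall in Gaq. Slpi had a difference of 0.69 ± 0.12 (edgeR adjusted p = 0.000377), with a log2 change of 0.72 ± 0.10 in Gai, -0.11 ± 0.10 in Gaq and 0.17 ± 0.10 in Ga13. Krt18 had a difference of 0.56 ± 0.11, with 0.78 ± 0.09 in Gai, 0.13 ± 0.09 in Gaq and 0.31 ± 0.09 in Ga13, and did not pass in 3 of the 12 fits that left out 1 Gai library (stimulated empty virus number 2, unstimulated Cre number 2 or unstimulated empty virus number 3).

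The levels behind these differences were as follows. Slpi was at 12.2 to 16.5 CPM in Gai Cre and 7.22 to 11.8 CPM in Gai empty virus libraries, at 6.94 to 9.71 CPM in Gaq Cre and 6.89 to 12.0 CPM in Gaq empty virus libraries. In Ga13 fibroblasts it was at 6.91 to 9.29 CPM with Cre and 5.98 to 8.19 CPM with empty virus. The Gai Cre libraries thus held the highest Slpi levels of the 3 lines. Krt18 was at 27.8 to 35.2 CPM in Gai Cre and 13.5 to 24.7 CPM in Gai empty virus libraries, against 19.4 to 32.5 CPM with Cre and 19.0 to 24.6 CPM with empty virus in Gaq. In Ga13 it was at 27.8 to 37.0 CPM with Cre and 21.2 to 30.3 CPM with empty virus, so the Cre levels of Gai and Ga13 covered nearly the same range and the lowest empty virus levels were in Gai.

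Itga3 had a difference of 0.32 ± 0.05 (edgeR adjusted p = 0.000201), with 0.40 ± 0.04 in Gai, 0.05 ± 0.04 in Gaq and 0.12 ± 0.04 in Ga13. Angptl7 had a difference of -0.58 ± 0.07 (edgeR adjusted p = 0.00014), with -0.21 ± 0.06 in Gai, 0.74 ± 0.06 in Gaq and -0.01 ± 0.06 in Ga13. Its change in Gai did not pass in the joint fit (edgeR adjusted p = 0.353), and its rise was in Gaq. Lyz2 differed by -0.14 ± 0.03, but its level also differed between lines, at 1043 to 1299 CPM in Gai Cre and 1154 to 1277 CPM in Gai empty virus libraries, against 348 to 534 CPM in Gaq and 170 to 251 CPM in Ga13 over both viruses. The remaining genes with the highest and lowest differences were Klhl30 (0.59 ± 0.12) and the amino acid transporter Slc7a3 (0.57 ± 0.14), and Brinp2 (-1.25 ± 0.31), Zfr2 (-0.67 ± 0.16) and Pdzd2 (-0.59 ± 0.08), none of which passed in Gai itself. Of these 5, Slc7a3, Zfr2 and Brinp2 were lost in 8, 9 and 10 of the 12 fits that left out 1 Gai library.

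**Figure D5:**
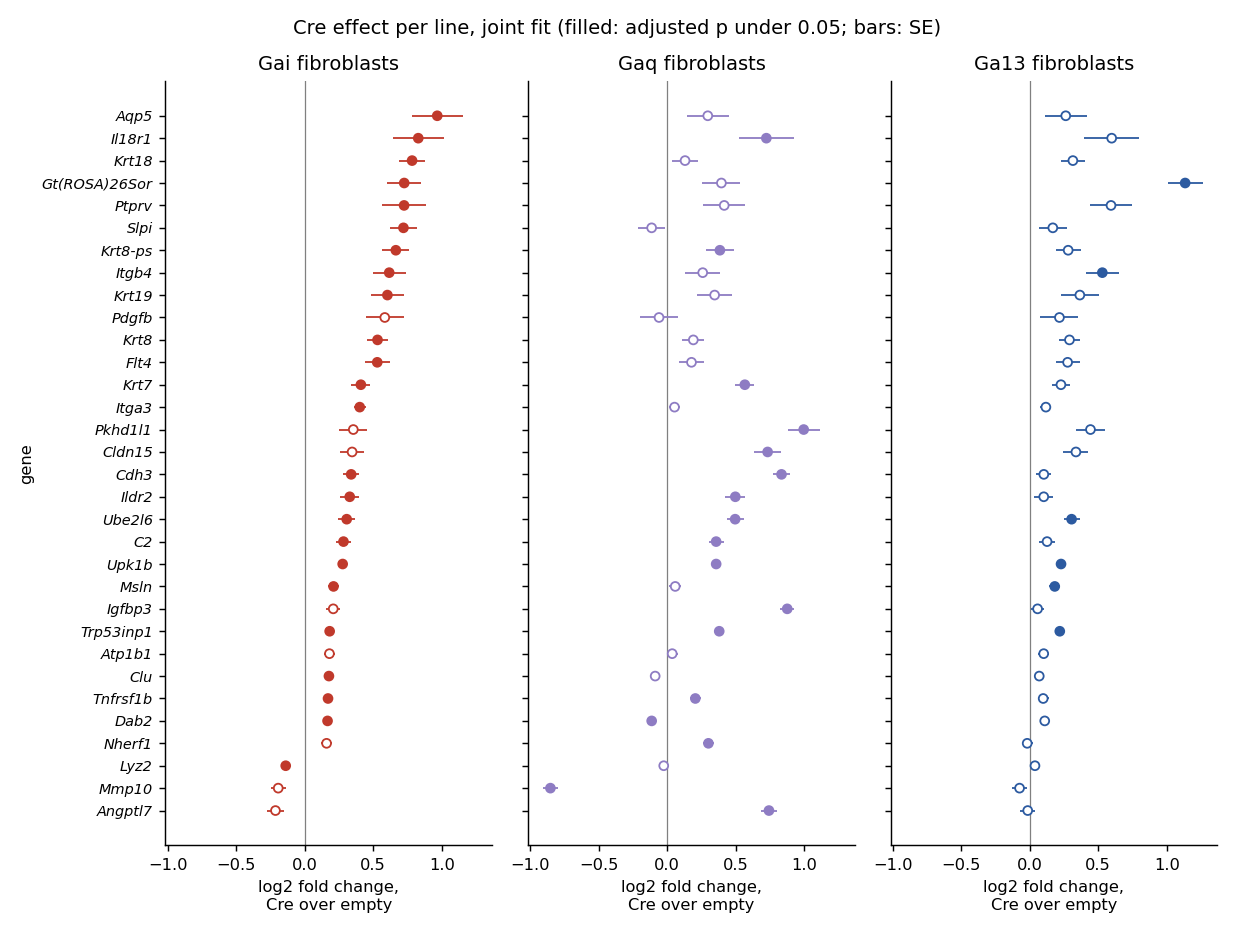
Log2 fold change of Cre over empty virus with SE bars in Gai, Gaq and Ga13 fibroblasts from the joint fit, for the 32 genes called in the fit of Gai alone, ordered by that fit. Filled points have an adjusted p under 0.05; Upk1b, Ube2l6 and Trp53inp1 are filled in all 3 lines, and Slpi, Krt18, Itga3 and Clu, which passed the test of the difference, are filled in Gai and open in Gaq and Ga13.

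The lines also differ in sex-linked transcripts, so line and sex of the cells cannot be told apart in this comparison. Gai libraries held Xist, the transcript of the inactive X chromosome, at 418 to 617 CPM together with the Y-linked Ddx3y at 41.1 to 53 CPM. Gaq libraries held Xist at 0 to 0.22 CPM with Ddx3y at 133 to 156 CPM, and Ga13 libraries held Xist at 414 to 580 CPM with Ddx3y at 0. The count of 52 fell to 32 without Gai stimulated empty virus number 3 or unstimulated Cre number 2, to 33 without unstimulated empty virus number 3, to 25 without the Gai libraries of number 1 and to 3 without the replicate block.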

How the data were processed

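Poly-A RNA libraries of the Gai, Gaq and Ga13 fibroblasts were used, and libraries of other cells in the series were not used here. The deposited tables hold raw read counts per gene, 1 table per line. Per the submitters' processing notes, the tools named were fastp, Subread and featureCounts with GRCm39. Versions, annotation and strandedness are not given in the sources used here. The 15 mitochondrial rows held 0 counts, so no mitochondrial share served as a sign of RNA quality. The 12 Gai libraries held 15604148 to 27023568 gene counts, which limits genes of few CPM most.

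Differences were tested by edgeR 4.0.16 under R 4.3.3 (robust quasi-likelihood F test, two-sided, TMM scaling, filterByExpr by group), with the biosensor row left out. The model held replicate number, state and virus, with a state by virus term for single states and their difference. The joint fit of 36 libraries held state, replicate number and virus within each line. The threshold was 0.05 after Benjamini-Hochberg adjustment over all genes. The test was run on simulated data with the same spread for all genes and no effect of replicate number. That run does not check the calls against the replicate effect seen in these libraries. Same-numbered libraries deviated together in all 18 Gai pairs (correlation 0.151 to 0.636), and the number was kept as a block. Libraries of numbers 2 and 3 deviated together about as much with each other (0.121 to 0.524) as within their own number (0.151 to 0.448), so the correlations set apart number 1 and not each number. The labels do not say what a number marks. Alternatives were the fit without the block, RLE size factors, DESeq2 1.42.0, limma-voom (limma 3.58.1), no filter, at least 1 CPM in 6 libraries, and each library left out. Leaving out number 1 was chosen after seeing the data.

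Named genes were up to 10 called genes in each direction by log2 change, at a mean of at least 1 CPM, up to 3 called members per list, the Rosa26 neighbours, the Gai and Go genes, F2r and Trp53, and extremes of the other contrasts. Other called genes, genes of the lists that did not pass, and sex-linked transcripts were named after their values were seen. The comparison and the 28 gene lists and 11 marker lists were chosen with earlier results of these data known. Errors of CPM levels are the SD, and those of log2 changes the SE. Of 50 genes named or called, 49 were in a GENCODE annotation of an earlier build, used for overlaps only. Exons of Ptprv, Itgb4, Krt8, Krt7, Srgap3, Gnao1, Plk1, Ildr2, C2, Dab2, Atp1b1, Slpi and the Rosa26 pair overlap another gene, and their counts are uncertain. Promoter letters are from RefSeq.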

Additional observations from a re-analysis of the deposited data

Results flagged for a closer look

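The Cre effect differed between the Gai line and the mean of the Gaq and Ga13 lines for 52 genes, by the edgeR test of the difference in the joint fit. Of the genes called in the Gai comparison, the log2 difference was 0.693 for Slpi, 0.561 for Krt18, 0.316 for Itga3, 0.186 for Clu and 0.169 for Dab2. It was -0.577 for Angptl7 and -0.145 for Lyz2. Xist and Y-linked transcripts also differ between the lines, so line and sex of the cells cannot be told apart here.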

How the results depend on the processing

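The replicate block was needed for most calls. Without the replicate block, the calls were 3 over both states, 0 at rest, 0 with TRAP-6 and 3 for the difference between lines. Without the filter on low counts, they were 83, 35, 31, 5 for the difference between states and 144 between lines, with more genes tested. DESeq2 gave 17 at rest, 25 with TRAP-6, 9 between states and 282 between lines, and limma-voom gave 4 with TRAP-6. Where no filter was used, or another tool was, the cause was not tested. Without the 4 libraries of number 1, calls were 5 with TRAP-6 and 25 between lines, and the biosensor difference was 7.406 with an exact permutation p of 0.0556, the smallest that 36 arrangements can give. Leaving out each library in turn gave 23 to 84 calls over both states, 2 to 14 at rest, 1 to 10 with TRAP-6, 0 to 1 between states and 32 to 61 between lines, with a biosensor difference of 7.164 to 7.482. With the replicate block, permuting within 6 pairs, the biosensor difference was 7.337 with an exact p of 0.0312, the smallest that 64 arrangements can give. RLE size factors gave 32 calls over both states and 45 between lines. The median of all genes moved by less than 0.1 on the log2 scale under each scaling. Depth limits genes of few CPM, such as Aqp5, Il18r1, Ptprv and Brinp2.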

Other observations

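Of the 10 genes with the next smallest adjusted p over both states, 8 had positive log2 changes and 2 (Tnfrsf11b and Nrcam) negative ones; those given here were chosen after their values were seen. Cgn, which encodes the tight junction protein cingulin, had a log2 change of 0.57 ± 0.13 (edgeR adjusted p = 0.0667). Espn, an actin-bundling protein of microvilli, had 0.72 ± 0.17 (edgeR adjusted p = 0.0811), and the growth factor Igf2 had 0.32 ± 0.07 (edgeR adjusted p = 0.0619). Tnfrsf11b, the decoy receptor osteoprotegerin, had -0.25 ± 0.06 (edgeR adjusted p = 0.114).

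In 2 further lists, 0 genes passed the test, beside 0.181% of all genes tested that rose and 0.0188% that fell. Over all genes tested, 49.8% had positive log2 changes. Cholesterol and fatty acid synthesis genes had positive log2 changes in 28 of 33, with a median of 0.083 that lay above 0 in 4 of 6 pairs. Smooth muscle and pericyte markers had positive log2 changes in 11 of 11, with a median of 0.113 that lay above 0 in 5 of 6 pairs.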
